A study of Macaca fascicularis with 11 samples.

Results

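The genes described here are 5 secreted components of the WNT pathway: the ligands *WNT6* (ENSMFAG00000043502) and *WNT5B* (ENSMFAG00000033973), the agonist *RSPO3* (ENSMFAG00000031116), and the secreted inhibitors *SFRP1* (ENSMFAG00000035564) and *SFRP2* (ENSMFAG00000038655). They were found by matching each symbol to its Ensembl identifier through the supplementary tables of the study, and they are 5 of the 19367 genes of the deposited matrix. Their levels were followed in the lineages of cultured cynomolgus embryos, by day and by genotype.

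WNT ligands are lipid-modified proteins that cells release to act on neighbouring cells, where they bind Frizzled receptors and LRP co-receptors and can stabilise β-catenin. R-spondins such as *RSPO3* bind LGR receptors and keep Frizzled proteins on the cell surface, which raises the response to a ligand. Secreted frizzled-related proteins bind WNT ligands outside the cell and can block them, and in the mammalian embryo WNT signals act in the formation of the primitive streak and the mesoderm.

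The study asked what the transcription factor ISL1, which marks the amnion, does in the early primate embryo. Frozen blastocysts were thawed and cultured in vitro on a plate, and embryos were dissociated on Day 10, Day 12 and Day 14 for droplet-based single-cell RNA sequencing. The wild-type embryos were 12 in number and gave 6 libraries, 2 per day. The *ISL1* mutants were 11 embryos in 5 libraries, with 1 library on Day 10 and 2 on each of Day 12 and Day 14.

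The labels call the mutants hypomorphic. They came from zygotes injected with Cas9 and 2 guide RNAs, so that cells of an embryo can carry different edits. Each library pooled between 1 and 3 embryos, and the labels place it in batch B1 or B2. The Day 12 wild-type B1 library held 1 embryo and 14 epiblast-derived cells, and the Day 12 and Day 14 mutant B2 libraries held 1 embryo each. Cultured embryos attach to plastic and have no maternal tissue.

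The matrix held 33330 cells, and the library totals lay between 36654977 and 164808415 UMIs (unique molecular identifiers, each standing for 1 captured transcript). The median cell held 10916 to 142180 UMIs, and the 4 lowest medians were those of the Day 12 and Day 14 mutants. Of 33205 cell barcodes 124 occurred in more than 1 library, at most 0.52% of the smaller library of any pair. The counts of *ISL1* itself did not separate the genotypes: amnion-like cells of Day 14 held 121 and 190.1 CPM (UMIs of the gene scaled to a common total for the summed cells) in wild-type libraries B1 and B2 and 150.4 and 189 CPM in the mutants. Counts of the 3′ end of a transcript do not show how the gene was edited, so this check says nothing about the labels.

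The cells of each day were clustered here and named from marker genes with the ending -like. Trophoblast, endoderm, extraembryonic mesenchyme (ExE-Mech) and epiblast-derived (Epi-derived) classes were separated first. The Epi-derived cells were then divided into Epi-like, transition-like, mesoderm-like and amnion-like cells. Sub-clusters that the marker rule left unnamed and that had both *CDX1* and *CDX2* among their 10 leading genes are called CDX1/CDX2-led. Each of them had transition-like as its highest marker score. The transition-like sub-cluster of Day 10 also had *CDX1* and *CDX2* among its leading genes, so these classes are not distinct by score. On Day 14 the CDX1/CDX2-led sub-clusters had *MIXL1* among their leading genes, and 1 also had *MESP1*, both markers of the mesoderm-like class. The paper describes an embryonic mesoderm cluster with preferential expression of *CDX1*, *CDX2* and *CDX4*. The CDX1/CDX2-led class may thus hold cells that the paper counts as mesoderm. Levels are CPM of the UMIs summed over the cells of a class in a library. In such sums a change in the make-up of a class and a change in RNA per cell cannot be told apart. Levels are compared between cells for 1 gene at a time, since 3′ counts carry no length scale between genes. Where both mutant libraries lay on the same side of both wild-type ones, the share of all genes that did so was not counted. Such an order is a description of these libraries.

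*WNT6* was found mainly in amnion-like cells among the Epi-derived classes. On Day 12 its level in amnion-like cells was 14.7 CPM in the wild-type B2 library (10 UMIs), and 40.6 and 50.7 CPM in mutants B1 and B2 (58 and 104 UMIs). On Day 14 it was 59.7 CPM (80 UMIs) and 29.4 CPM (11 UMIs) in wild-type B1 and B2, and 43.5 CPM (70 UMIs) and 84.8 CPM (81 UMIs) in mutants B1 and B2. The genotypes overlapped on Day 14. *WNT6* UMIs were found in 24.1% to 59.6% of the amnion-like cells of a library, at medians of 4885 to 28551 UMIs per cell. Endoderm-like cells had none in any of 11 libraries, at medians of 5840 to 73337 UMIs per cell.

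In endoderm-like, Epi-like and mesoderm-like cells *WNT6* was low. The count of 0 in the endoderm-like cells allows levels of up to 1.10 to 17.8 CPM depending on the library (3 UMIs of the total, counting error only). Epi-like cells held between 0 and 1.57 CPM. In mesoderm-like cells with at least 5 cells per library the level was between 0 and 0.841 CPM. The CDX1/CDX2-led clusters of Day 14 held 3.03 and 3.78 CPM in wild-type B1 and B2. The remaining unnamed Epi-derived cells were uneven, with 24.5 CPM in the Day 14 wild-type B1 library, 21.0 CPM in the Day 14 mutant B1 library and 85.7 CPM in the Day 10 mutant, against at most 5.15 CPM in the other 6 libraries that held at least 5 such cells.

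Trophoblast-like cells held *WNT6* at a low level of 0.0720 to 1.42 CPM, yet they were 46.0% to 90.8% of the cells of a library. Their share of a library's *WNT6* UMIs ran from 9.44% (mutant Day 10) to 92.9% (wild-type Day 12 B1). It was 16.7% in wild-type Day 12 B2 and 14.7% in mutant Day 14 B2, where amnion-like cells held 83.3% and 79.4%, and at least 41.4% in the other 8 libraries. In the Day 14 wild-type B1 library the trophoblast-like cells held 41.4% of *WNT6* UMIs (95% exact binomial interval 34.8% to 48.2%) and the amnion-like cells 36.4% (30.0% to 43.1%), although the latter were 1.61% of the cells. All such intervals cover counting error only.

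The marker rule named no Day 10 sub-cluster amnion-like. An unnamed Day 10 sub-cluster, with *HAND1*, *MESP1*, *WLS* and *BMP4* among its leading genes, had amnion-like as its highest marker score. That score was 0.984, against 0.790 for mesoderm-like. The sub-cluster went unnamed because another class had more markers among its 10 leading genes. The paper reports cells with amnion markers, *WNT6* and *ISL1* among them, already at its earliest time point. The unnamed sub-cluster held *WNT6* mainly in its mutant cells. Its 21 mutant cells held 158 *WNT6* UMIs (91.7 CPM) and its 51 wild-type cells 22 UMIs (4.20 CPM). *ISL1* followed the same split, with 148 UMIs (85.9 CPM) in the mutant cells and 32 UMIs (6.10 CPM) in the wild-type cells. The mutant cells came from 1 library, so the difference has no replicate check, and the sub-cluster was singled out after its values were seen.

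*WNT5B*, a ligand best known for signalling that does not use β-catenin, was highest in transition-like, CDX1/CDX2-led and mesoderm-like cells. Transition-like cells of Day 10 held 182 and 253 CPM in wild-type B1 and B2 (237 and 711 UMIs) and 147 CPM in the mutant (137 UMIs). The CDX1/CDX2-led clusters held 216 CPM in the Day 12 wild-type B2 library, and 128 and 162 CPM in Day 12 mutants B1 and B2. Mesoderm-like cells held 248 CPM in the Day 12 wild-type B2 library and 198 CPM in the Day 14 wild-type B1 library (1412 UMIs). These 3 classes overlapped in level.

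Epi-like cells held less *WNT5B* than these classes in each library, except the Day 10 mutant, where 8 mesoderm-like cells held 68.9 CPM. Their Day 10 level was 52.1 and 62.1 CPM in wild-type B1 and B2 and 87.1 CPM in the mutant. On Day 12 it was 62.3 and 74.1 CPM in wild type and 41.2 and 36.8 CPM in mutants. On Day 14 it was 33.2 CPM (331 UMIs) and 31.4 CPM (20 UMIs) in wild type, and 16.6 CPM (31 UMIs) and 8.06 CPM (5 UMIs) in mutants. Both mutant values were below both wild-type ones on Day 12 and Day 14, whereas the single Day 10 mutant value was above both wild-type ones. The Day 12 Epi-like cells were not tested, and the wild-type value of 62.3 CPM rests on 14 cells of 1 embryo. Trophoblast-like cells held at most 3.92 CPM.

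In amnion-like cells *WNT5B* reached 174 CPM in the Day 12 wild-type B2 library and 61.6 and 144 CPM in Day 12 mutants. On Day 14 the amnion-like level was 94.7 CPM (127 UMIs) and 66.9 CPM (25 UMIs) in wild type and 21.7 CPM (35 UMIs) and 27.2 CPM (26 UMIs) in mutants. Both mutant values lay below both wild-type values.

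**Figure D1:**
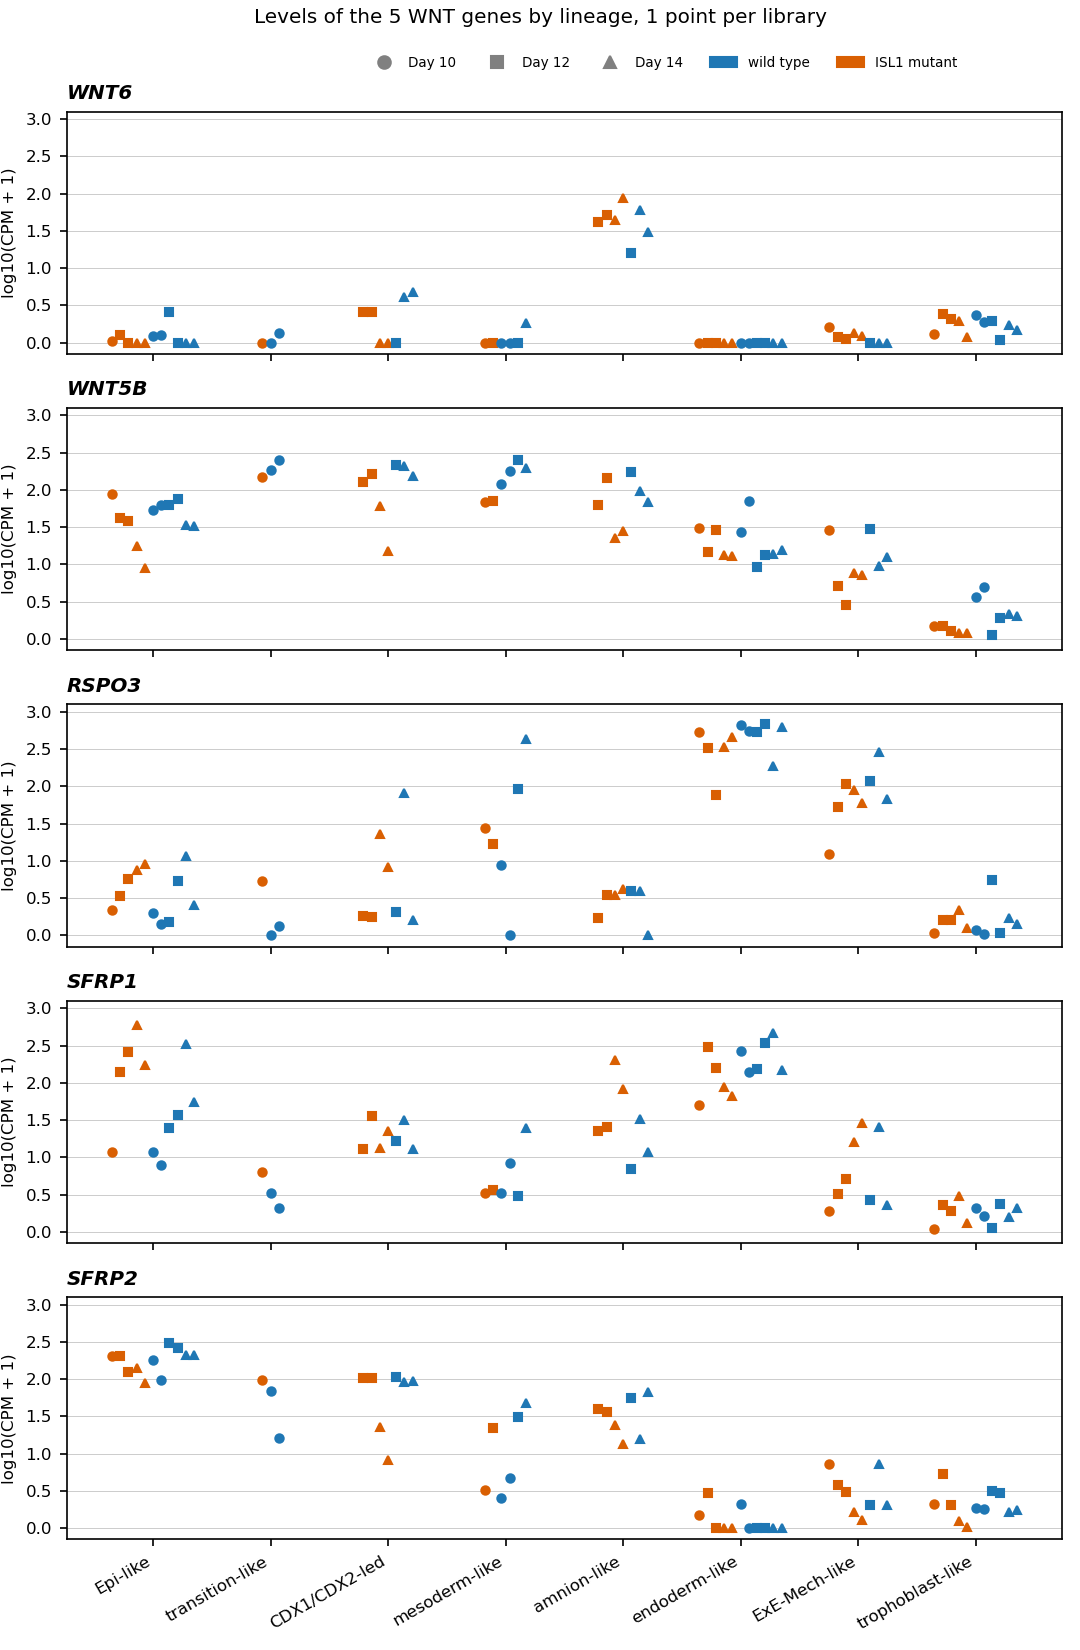
Level of each of the 5 genes (vertical axis, log10 of CPM + 1) by lineage (horizontal axis), with 1 point per library with at least 5 cells of the lineage, colour for genotype and shape for day. *WNT6* stands out in amnion-like cells, *RSPO3* in endoderm-like cells (74.9 to 696 CPM) and ExE-Mech-like cells, and *SFRP2* is at 0 in most endoderm-like points.

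*RSPO3* was high in endoderm-like and ExE-Mech-like cells, and in the mesoderm-like cells of some libraries. Endoderm-like cells held 670.3 and 557 CPM on Day 10 in wild-type B1 and B2 and 531 CPM in the mutant. On Day 12 they held 531 and 696 CPM in wild type and 327 and 74.9 CPM in mutants, the last from 27 UMIs in 25 cells. The Day 14 levels were 184 and 623 CPM in wild type and 332 and 463 CPM in mutants, so the mutant values lay between the wild-type ones.

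ExE-Mech-like cells also held *RSPO3*. On Day 10 the class was named in the mutant library alone (59 cells, 11.3 CPM). On Day 12 the wild-type B2 library held 119 CPM and mutants B1 and B2 held 52.0 and 107 CPM. On Day 14 the level was 286 CPM (2574 UMIs) in wild-type B1, 67.1 CPM (508 UMIs) in wild-type B2, and 87.3 and 59.2 CPM in the mutants (2500 and 1314 UMIs). The wild-type B1 library stood above the other 3, which lay close together. ExE-Mech-like cells held 86.2% and 92.0% of the *RSPO3* UMIs of Day 14 mutants B1 and B2, against 36.6% and 58.7% in wild type. In wild-type B1 the larger part, 56.2%, lay in Epi-derived cells, of which the mesoderm-like cells held 43.4% of the library's UMIs, whereas Epi-derived cells held at most 1.24% in the other Day 14 libraries. The ExE-Mech-like cells were 25.7% and 27.4% of the cells of Day 14 mutants B1 and B2, and 5.04% and 25.2% in wild type. On Day 10 the endoderm-like cells had held 98.4% of the *RSPO3* UMIs in each wild-type library and 86.3% in the mutant.

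Mesoderm-like cells also held *RSPO3*, mainly in 1 library. In the Day 14 wild-type B1 library 134 of 143 mesoderm-like cells had at least 1 UMI, 3054 UMIs in all, at 428 CPM. The Day 12 wild-type B2 library followed with 91.9 CPM, where 11 of 28 cells had a UMI. The Day 14 wild-type B2 library had 4 mesoderm-like cells with 0 UMIs, and the 8 cells of the Day 10 wild-type B2 library also had 0. The same library difference ran through the neighbouring CDX1/CDX2-led clusters, at 81.2 CPM (616 UMIs) in Day 14 wild-type B1 and 0.630 CPM (1 UMI) in B2. Amnion-like cells held at most 3.14 CPM.

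Single cells could carry a whole lineage's *RSPO3* value. Trophoblast-like cells of the Day 12 wild-type B1 library held 192 *RSPO3* UMIs, of which 182 (94.8%) were in 1 cell. In the other libraries trophoblast-like cells held 0.0310 to 1.17 CPM.

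*SFRP1* reached its highest levels in endoderm-like and in late Epi-like cells. Endoderm-like cells held 269 and 140.4 CPM on Day 10 in wild type and 49.6 CPM in the mutant. On Day 12 they held 152 and 341 CPM in wild type and 302 and 155 CPM in mutants. On Day 14 the values were 461 CPM (1048 UMIs) and 146 CPM (81 UMIs) in wild type, and 86.5 CPM (70 UMIs) and 65.2 CPM (11 UMIs) in mutants. Both Day 14 mutant values lay below both wild-type values. ExE-Mech-like cells held 24.6 and 1.32 CPM on Day 14 in wild-type B1 and B2 and 14.98 and 27.8 CPM in mutants. In mutant B2 these were 616 UMIs, 63.8% of the *SFRP1* UMIs of that library, against 4.37% to 19.1% in the other Day 14 libraries.

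In Epi-like cells *SFRP1* was low on Day 10, at 10.9 and 6.89 CPM in wild-type B1 and B2 and 10.8 CPM in the mutant. By Day 12 the wild-type libraries held 23.6 and 36.5 CPM and the mutants 138 and 262 CPM. On Day 14 the wild-type values were far apart, 327 CPM in B1 (3268 UMIs in 192 cells) and 54.9 CPM in B2 (35 UMIs in 25 cells). The mutant values were 592 CPM in B1 (1102 UMIs in 184 cells) and 172 CPM in B2 (107 UMIs in 16 cells), and the genotypes overlapped. Transition-like cells, named on Day 10 alone, held at most 5.37 CPM, and the CDX1/CDX2-led clusters of Day 12 and Day 14 held 12.0 to 34.7 CPM.

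*SFRP2* was an epiblast gene at every day. Epi-like cells held 179.9 and 95.3 CPM on Day 10 in wild type and 206 CPM in the mutant. They held 307 and 262 CPM on Day 12 in wild type and 206 and 123 CPM in mutants. On Day 14 the values were 210.4 and 213 CPM in wild type (2100 and 136 UMIs) and 142 and 88.6 CPM in mutants (264 and 55 UMIs). The mutant values lay below the wild-type ones on Day 12 and Day 14, and above them on Day 10.

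Endoderm-like cells, the other *SFRP1* domain, held 0 *SFRP2* UMIs in 8 of 11 libraries and at most 1.99 CPM in the rest. The CDX1/CDX2-led clusters kept part of the Epi-like level of *SFRP2*, with 106 CPM in Day 12 wild-type B2, 104 and 103 CPM in Day 12 mutants, and 89.6 and 93.3 CPM in Day 14 wild type. In Day 14 mutants these clusters held 21.7 CPM (7 UMIs in 32 cells) and 7.18 CPM (1 UMI in 6 cells). In the Day 14 mutant B2 library 57.8% of *SFRP2* UMIs (50.2% to 65.1%) lay in the 19 cells of 1 unnamed sub-cluster. It had the stress genes *DDIT3*, *DDIT4* and *HMOX1* among its leading genes, and its highest marker score was Epi-like (0.821). The Epi-like class of that library, which left these cells out, held 16 cells.

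**Figure D2:**
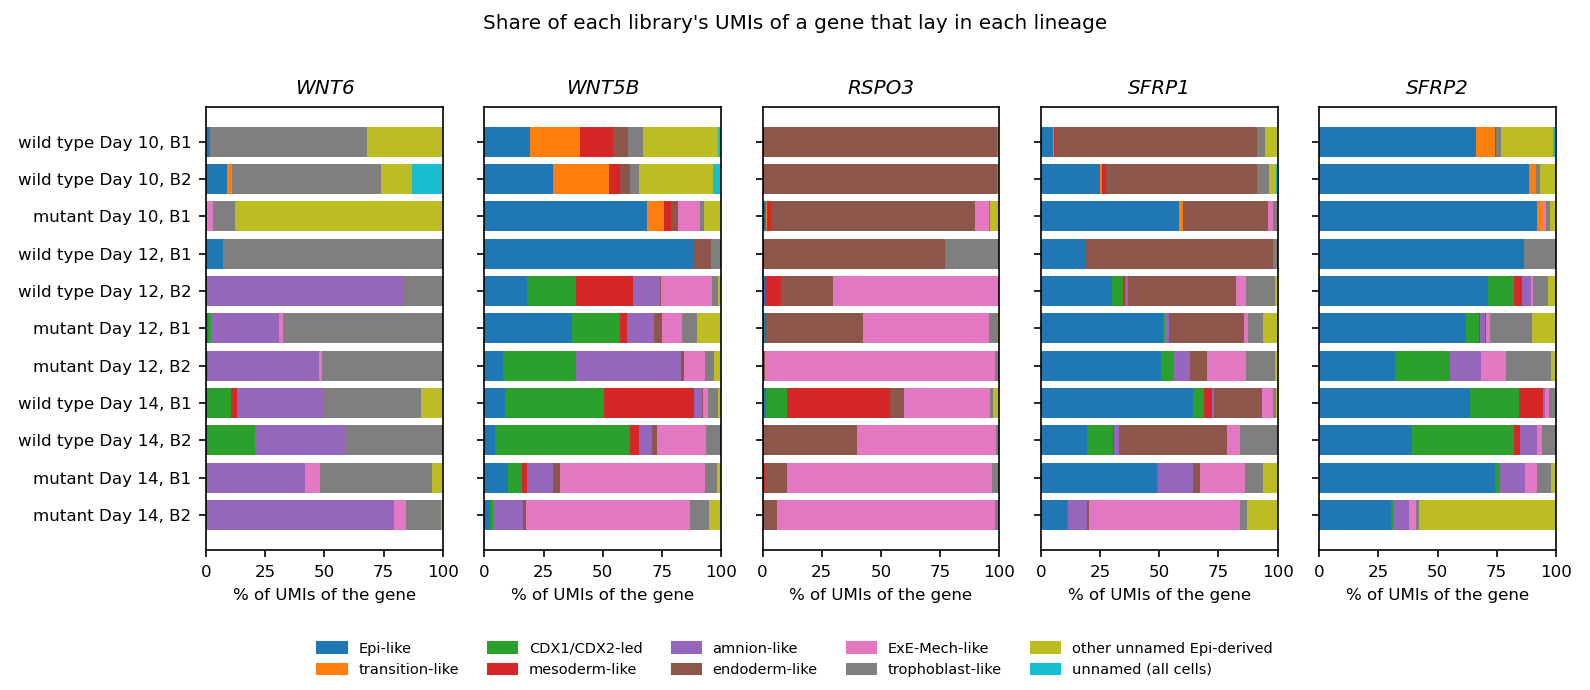
Share of a library's UMIs of each gene (horizontal axis, percent) that lay in each lineage (colours), with 1 bar per library. Most *RSPO3* UMIs lie in endoderm-like cells on Day 10 and in ExE-Mech-like cells in the mutants of Day 14 (86.2% and 92.0%). Shares also follow cell numbers. In those mutants the level was 332 and 463 CPM in endoderm-like cells and 87.3 and 59.2 CPM in ExE-Mech-like cells. Trophoblast-like cells hold 9.44% to 92.9% of *WNT6* although their level is at most 1.42 CPM.

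To ask how the epiblast itself changed between Day 10 and Day 14, the quasi-likelihood test of edgeR was applied to the UMI sums of wild-type Epi-like cells. P-values were adjusted by Benjamini-Hochberg over every gene tested, and the false discovery rate was 1%. *SFRP1* rose by 4.58 on the log2 scale (SE 0.754, adjusted p = 0.00518), the only one of the 4 members tested that passed. The paper had already named *SFRP1* among genes that rose from early to late epiblast in these embryos. The members were taken from such lists, so this call describes a known change and is no independent evidence for it. Over all 10469 genes tested 1.09% were called, 0.487% higher and 0.602% lower on Day 14. An unadjusted p under 0.05 was found for 3 members and 18.1% of all genes, and DESeq2 called 1 member and 2.04% of all genes. *RSPO3* had a log2 fold change of 3.77 (SE 0.840, adjusted p = 0.0276), *SFRP2* of 0.65 (SE 0.341, adjusted p = 0.351) and *WNT5B* of -0.78 (SE 0.270, adjusted p = 0.143), and *WNT6* was too low to test. With 1 library left out the *RSPO3* value lay between 1.38 and 4.29. Its Day 14 level was 10.5 CPM (105 UMIs) in B1 and 1.57 CPM (1 UMI) in B2.

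The *SFRP1* call was lost when any of 3 of the 4 libraries was left out. Without the Day 14 B1 library the log2 fold change was 2.68 with an adjusted p of 0.166, and without the Day 10 B1 or B2 library it was 4.96 (adjusted p = 0.0245) or 4.24 (adjusted p = 0.0965). It was also lost with only the libraries of both days in the fit (4.58, adjusted p = 0.0228). Within batches the direction was the same, from 10.9 to 327 CPM in B1 and from 6.89 to 54.9 CPM in B2. Epi-like cells were shallower on Day 14, at a median of 48836 and 24547 UMIs per cell against 56899 and 93249 on Day 10, and its part in the result was not tested.

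**Figure D3:**
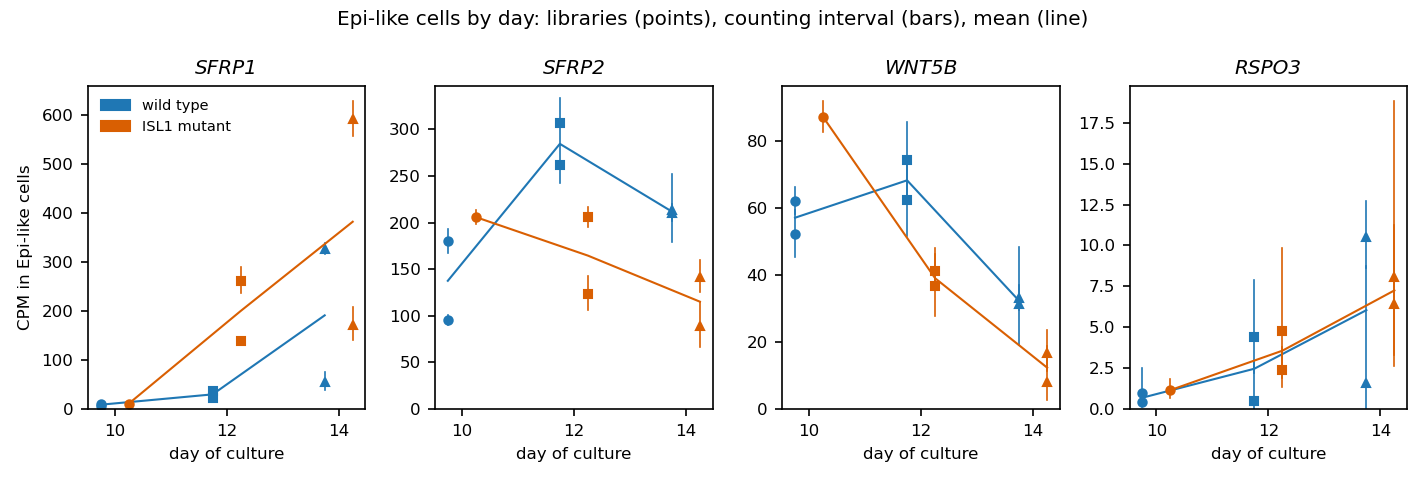
CPM of 4 genes in Epi-like cells (vertical axis, linear) by day of culture (horizontal axis), with 1 point per library, bars for the exact 95% Poisson interval of its count and lines through the means of each genotype. *SFRP1* climbs from at most 10.9 CPM on Day 10 to between 54.9 and 592 CPM on Day 14, and *WNT5B* is lowest in the Day 14 mutants (16.6 and 8.06 CPM).

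The central comparison of the design is *ISL1* mutant against wild type on Day 14. In Epi-derived-like cells as a whole *WNT5B* was at 130.0 CPM (3493 UMIs) and 112 CPM (303 UMIs) in wild-type B1 and B2, and at 22.7 CPM (96 UMIs) and 16.4 CPM (43 UMIs) in mutants B1 and B2. Both mutant values lay well below both wild-type values. The log2 fold change was -2.59 (SE 0.410, adjusted p = 0.0173), short of the 1% threshold. None of the 5 members passed with edgeR, where 0.0893% of 12322 genes were called (0.073% higher and 0.0162% lower in mutants), while 3 members had an unadjusted p under 0.05 and DESeq2 called 1, *WNT5B*. Over all genes these shares were 24.3% and 4.62%. With only the Day 14 libraries in the fit *WNT5B* passed (adjusted p = 0.00484).

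The other members of the Epi-derived comparison were less even. *WNT6* stood at 4.80 and 6.29 CPM in wild type and 18.4 and 31.3 CPM in mutants, a log2 fold change of 2.26 (SE 0.696, adjusted p = 0.0884). *SFRP1* stood at 139 and 21.8 CPM in wild type and 373 and 119 CPM in mutants (log2 fold change 1.57, adjusted p = 0.209). That value was 3.53 without the wild-type B1 library, 0.77 without wild-type B2 and 0.64 without mutant B1. *SFRP2* stood at 118 and 117 CPM against 74.7 and 65.7 CPM (-0.70, adjusted p = 0.359). *RSPO3* stood at 147 and 0.740 CPM in wild type and 8.51 and 5.35 CPM in mutants. Its log2 fold change of -3.43 (adjusted p = 0.191) became 3.28 without the wild-type B1 library, so that 1 library set its direction.

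The make-up of the Epi-derived cells moved with genotype. Amnion-like cells were 8.98% and 16.8% of Epi-derived cells in Day 14 wild-type B1 and B2 and 46.8% and 55.9% in mutants. CDX1/CDX2-led cells were 29.9% and 57.5% in wild type and 6.57% and 6.45% in mutants, and mesoderm-like cells 25.2% and 3.54% against 0.82% and 0%. The mutant cells were also shallower, with medians of 6759 and 19413 UMIs per Epi-derived cell against 44131 and 21784. The part of make-up and depth in the differences above was not tested.

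Within single classes *WNT5B* was again lower in mutants, without passing the threshold. In Epi-like cells its log2 fold change was -1.21 (SE 0.321, adjusted p = 0.123) and in amnion-like cells -1.71 (SE 0.432, adjusted p = 0.0444). With 1 library left out these lay between -1.93 and -1.0 in Epi-like cells and between -1.93 and -1.33 in amnion-like cells. In the CDX1/CDX2-led clusters the wild-type values were 206 and 153 CPM and the mutant values 59.0 CPM (19 UMIs) and 14.4 CPM (2 UMIs). The log2 fold change there was -2.22 (SE 0.443, adjusted p = 0.0934). Without 1 of the 4 libraries it lay between -3.77 (without mutant B1) and -1.73 (without mutant B2). In the pair of amnion-like sub-clusters that held cells of both genotypes the mutants had 57.1 and 46.4 CPM of *WNT5B* against 94.7 and 66.9 CPM, and the log2 fold change was -0.69 (SE 0.429, adjusted p = 0.457). The genotypes were unevenly spread within that pair. The sub-cluster with *CDX1* and *CDX2* among its leading genes held 48 wild-type and 35 mutant cells, and the other held 22 and 62. The amnion-like difference was 0.16 when the cells were clustered on integrated principal components instead of the UMAP embedding, so it depended on how the class was drawn.

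*SFRP2* ran in the same direction in these classes. It had log2 fold changes of -0.79 in Epi-like cells (adjusted p = 0.354) and -2.58 in CDX1/CDX2-led clusters (SE 0.448, adjusted p = 0.0509). The latter lay between -3.78 and -2.18 with 1 library left out, and it was 0.24 with clusters from the integrated principal components. In that clustering the Day 14 sub-cluster with *MIXL1*, *CDX2* and *CDX1* among its leading genes was named transition-like. The Day 14 CDX1/CDX2-led class was then another unnamed sub-cluster, with *KRT18* and *HAND1* also among its leading genes, so the 0.24 is of other cells. None of the 4 members tested passed with edgeR in either class, where 0.0478% of genes in Epi-like cells (0.0382% higher and 0.00955% lower in mutants) and 0.0332% in CDX1/CDX2-led clusters (all higher) were called. In each class 2 members had an unadjusted p under 0.05, as did 13.6% of all genes in Epi-like cells and 9.62% in CDX1/CDX2-led clusters. DESeq2 called 0 members in Epi-like cells (0.873% of all genes) and 2 in the CDX1/CDX2-led clusters (0.365%). These 2 comparisons and the endoderm-like one were added after the first results had been seen.

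In amnion-like cells *SFRP1* stood at 32.1 CPM (43 UMIs) and 10.7 CPM (4 UMIs) in Day 14 wild type and at 201 CPM (323 UMIs) and 80.6 CPM (77 UMIs) in mutants. The genotypes did not overlap, and the log2 fold change was 2.56 (SE 0.490, adjusted p = 0.0173). With the batch as a block it was 2.64 (SE 0.416, adjusted p = 0.00818) and passed. In this class the deviations of same-batch libraries from their group means correlated at -0.004 between the Day 14 genotypes. With 1 library left out the log2 fold change of *SFRP1* lay between 1.87 and 3.84, and it was 3.05 without the mutant B2 library. None of the 4 members tested passed without the block, where 0.957% of 9406 genes were called, 0.776% higher and 0.181% lower in mutants. For 2 members the unadjusted p was under 0.05, as for 25% of all genes, and DESeq2 called 1 (*SFRP1*) and 4.04% of all genes.

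That difference was carried by sub-clusters without wild-type cells. The 3 amnion-like sub-clusters with no wild-type cell held 254, 325 and 156 CPM of *SFRP1*. Each of them held cells of 1 mutant library alone, so none has a replicate check. In the pair of amnion-like sub-clusters with cells of both genotypes the mutant libraries held 26.8 and 22.3 CPM, and the log2 fold change was -0.01 (SE 0.464, adjusted p = 0.995). The largest mutant sub-cluster held 104 cells of 1 library at a median of 3728 UMIs per cell and had *WFDC2*, *TPM1* and *PMP22* among its leading genes. *WNT6* had a log2 fold change of 0.47 (SE 0.419, adjusted p = 0.520) and *SFRP2* of -0.82 (adjusted p = 0.422). Neither sign was stable: *WNT6* was at -0.10 without the mutant B2 library and *SFRP2* at 0.34 without wild-type B2, and clusters from the integrated principal components gave -0.43 and 0.52. The paper, with cells as replicates and its own amnion clusters, reports *WNT6* among the genes lower in mutant amnion. In the pair of sub-clusters with both genotypes here, *WNT6* was at 64.3 and 98.3 CPM in mutants B1 and B2. The wild-type values there were 59.7 and 29.4 CPM.

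For *SFRP1* in endoderm-like cells the sign was the opposite, with a log2 fold change of -1.99 (SE 0.588, adjusted p = 0.519), which was -0.82 without the wild-type B1 library and -2.60 without B2. With edgeR 0 of 3 members tested passed, as did 0% of all genes. An unadjusted p under 0.05 was found for 1 member and 6.95% of all genes, and DESeq2 called 0 members and 0.291% of genes. The Day 14 mutant endoderm-like cells numbered 108 and 11 and held 70 and 11 *SFRP1* UMIs.

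In ExE-Mech-like cells the log2 fold changes were -1.23 for *RSPO3* (adjusted p = 0.393), -0.56 for *WNT5B* (adjusted p = 0.453) and -2.95 for *SFRP2* (SE 0.859, adjusted p = 0.214). Without the wild-type B1 library the *RSPO3* value was 0.26 and the *SFRP2* value -1.06. *SFRP2* levels there were 6.21 and 1.06 CPM in wild type and 0.628 and 0.270 CPM in mutants (56, 8, 18 and 6 UMIs). Trophoblast-like cells of the same libraries held 0.0240 to 0.774 CPM of *SFRP2* and endoderm-like cells 0. With edgeR 0 of 4 members tested and 0% of genes passed. An unadjusted p under 0.05 was found for 1 member and 16.9% of all genes, and DESeq2 called 0 members and 1.78% of genes.

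Trophoblast-like cells gave 0 of 5 members, again with 0% of genes called by edgeR, 2 members with an unadjusted p under 0.05 (13.7% of all genes) and 0 called by DESeq2 (2.09%). Over all cells of a library *WNT5B* stood at 22.7 and 11.6 CPM in wild type and 2.71 and 1.86 CPM in mutants, with a log2 fold change of -2.91 (SE 0.814, adjusted p = 0.249). *SFRP2* stood at 20.0 and 9.41 CPM against 3.06 and 1.67 CPM (-2.64, SE 0.700, adjusted p = 0.240). With edgeR 0 members and 0% of genes were called, 2 members had an unadjusted p under 0.05 (12.9% of all genes), and DESeq2 called both of these (2.14%). Cells named mesoderm-like could not be compared with these clusters, since the Day 14 mutants held 4 of them. The CDX1/CDX2-led clusters, which had mesoderm markers among their leading genes on Day 14, were compared above.

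**Figure D4:**
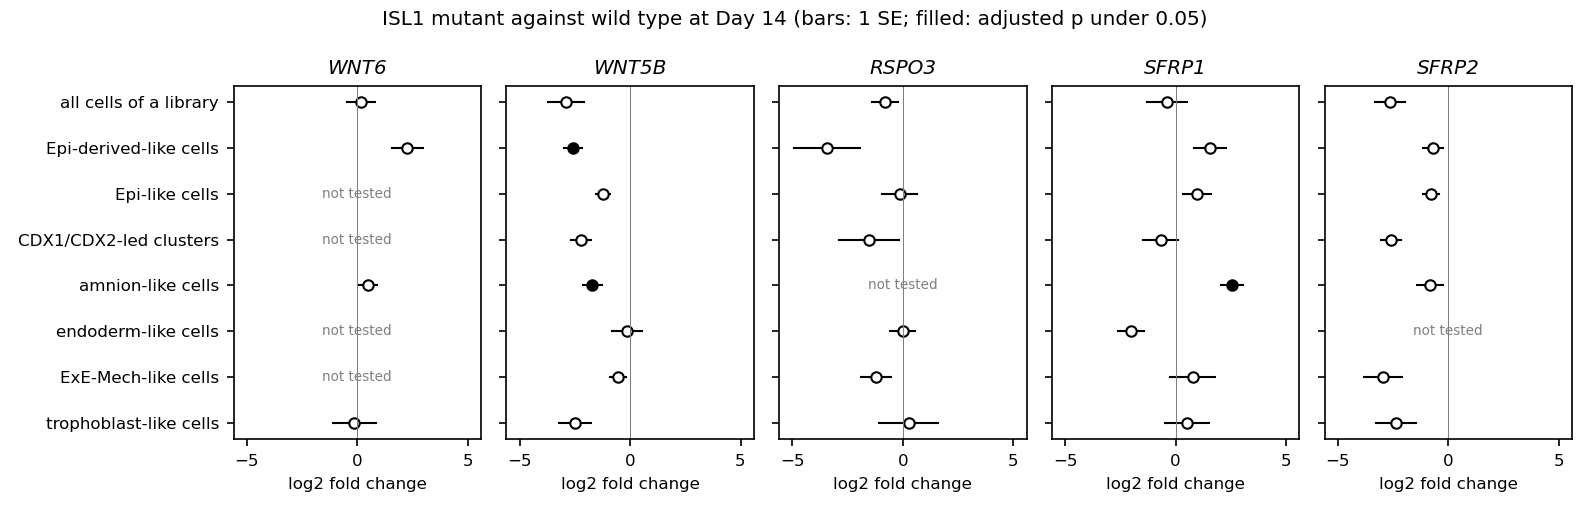
Log2 fold change of mutant against wild type on Day 14 (horizontal axis) for each gene and class of cells (rows), from edgeR, with bars of 1 SE and filled points for an adjusted p under 0.05. None of the points passed the 1% threshold, *WNT5B* lies to the left of 0 in every row with these clusters, and *SFRP1* lies at 2.56 in amnion-like and at -1.99 in endoderm-like cells.

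Day 12 mutants were compared with wild type to see whether differences were already present. In Epi-derived-like cells *SFRP1* stood at 23.6 and 22.0 CPM in wild type and 96.2 and 93.7 CPM in mutants (log2 fold change 2.03, SE 0.755, adjusted p = 0.396). *WNT6* stood at 1.57 and 1.90 CPM (3 and 10 UMIs) against 5.14 and 20.4 CPM (62 and 106 UMIs), a log2 fold change of 2.77 (SE 0.836, adjusted p = 0.319) that was 1.55 without the mutant B2 library and 3.47 without mutant B1. Amnion-like cells were 0% and 15.7% of the Epi-derived cells in wild-type B1 and B2 and 11.8% and 41.7% in the mutants, and the part of this make-up in the *WNT6* difference was not tested. None of the 5 members passed with edgeR, where 0.00812% of genes were called. An unadjusted p under 0.05 was found for 3 members and 10.5% of all genes, and DESeq2 called 0 members and 0.37% of genes.

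In the Epi-derived-like cells of Day 12 *WNT5B* stood at 62.3 and 145 CPM in wild-type B1 and B2 and at 54.0 and 111 CPM in mutants. The genotypes overlapped, and within each batch the mutant value was lower (log2 difference -0.20 in B1 and -0.39 in B2). All 14 cells of the wild-type B1 library were Epi-like, against 42.2% of the Epi-derived cells of wild-type B2. Its mutant difference on Day 14 was set against that on Day 12 in 1 fit, and the contrast was -2.22 on the log2 scale (SE 0.549, adjusted p = 0.336). With edgeR 0 members and 0% of genes passed in that contrast. For 1 member the unadjusted p was under 0.05, as for 8.72% of all genes, and DESeq2 called 0 members and 0.325% of genes.

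A list of 101 WNT pathway genes was used to place the members among ligands, receptors, inhibitors and targets, and 31 of the list, members included, could be tied to an identifier. Identifiers came from the study's tables of genes that mark cell types or change in these same data, mutant against wild type included. The 31 genes were thus preselected for change, so their counts and medians beside those of all genes are a description only. In Day 14 Epi-derived-like cells none of the 26 list genes that are no members passed with edgeR, 10 had an unadjusted p under 0.05 (3 higher and 7 lower in mutants), and DESeq2 called 3. Over all genes 24.3% had such a p and DESeq2 called 4.62%. The 9 targets had a median log2 fold change of -2.32 and the 6 ligands of 0.10, against 0.04 over all 12322 genes. In amnion-like cells 0 of 20 passed with edgeR, 12 had an unadjusted p under 0.05 (25% of all genes) and DESeq2 called 2 (4.04% of all genes). The 8 targets tested there had a median of -1.40 against 0.03 over all genes.

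In wild-type Epi-like cells the list gene that passed between Day 10 and Day 14 was *BAMBI*, a pseudoreceptor of BMP and activin signalling and also a WNT target. It rose by 2.38 on the log2 scale (SE 0.374, adjusted p = 0.00451 with edgeR). *APCDD1*, a membrane-bound inhibitor of the pathway, was higher in Day 14 mutants than in wild type. Its log2 fold change was 4.03 (SE 0.469, adjusted p = 0.00376) in Epi-like cells and 3.55 (SE 0.404, adjusted p = 0.0047) in CDX1/CDX2-led clusters, again from edgeR. Both comparisons were added after the first results had been seen. The Day 14 mutant B2 library had 16 Epi-like and 6 CDX1/CDX2-led cells. In Epi-like cells the alternatives called as few as 0 genes, so the *APCDD1* call did not hold in all of them. *APCDD1* was most abundant in ExE-Mech-like cells, at a median of 253 CPM over libraries, against 4.09 CPM in Epi-like cells.

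The list also showed which other ligands each lineage held, here as medians of CPM over the libraries. *WNT2* was at 116 in ExE-Mech-like cells and at most 2.10 in the other 7 lineages of the plot, with 9.18 in the unnamed cells of Day 10. *WNT7A* was at 84.1 in trophoblast-like cells and at most 2.67 in the other lineages of the plot, with 18.3 in the remaining unnamed Epi-derived cells (up to 86.9 in 1 of 9 libraries). *WNT8A* was at 51.0 in mesoderm-like cells, with 14.4 in CDX1/CDX2-led clusters. *WNT3* was at 25.0 in mesoderm-like and 22.9 in amnion-like cells, so that the amnion-like cells held *WNT6*, *WNT3* and *WNT5B* together. *WLS*, which carries WNT proteins to the cell surface, was at 329 in amnion-like cells, the highest of the 8 lineages plotted.

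On the receiving side *LGR5*, a receptor for R-spondins, was at a median of 67.6 CPM in endoderm-like cells and at most 1.81 CPM in the other lineages, and agonist and receptor were thus counted in the same class. *FZD4* was at 34.7 CPM in endoderm-like and 24.0 CPM in mesoderm-like cells. *SP5*, a direct target of β-catenin signalling, was at 80.4 CPM in endoderm-like, 69.4 CPM in mesoderm-like and 49.7 CPM in CDX1/CDX2-led cells, and at 3.28 CPM in Epi-like cells. *TBXT*, the Brachyury gene, had class medians of at most 3.84 CPM and reached 13.0 CPM in 1 mesoderm-like library.

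**Figure D5:**
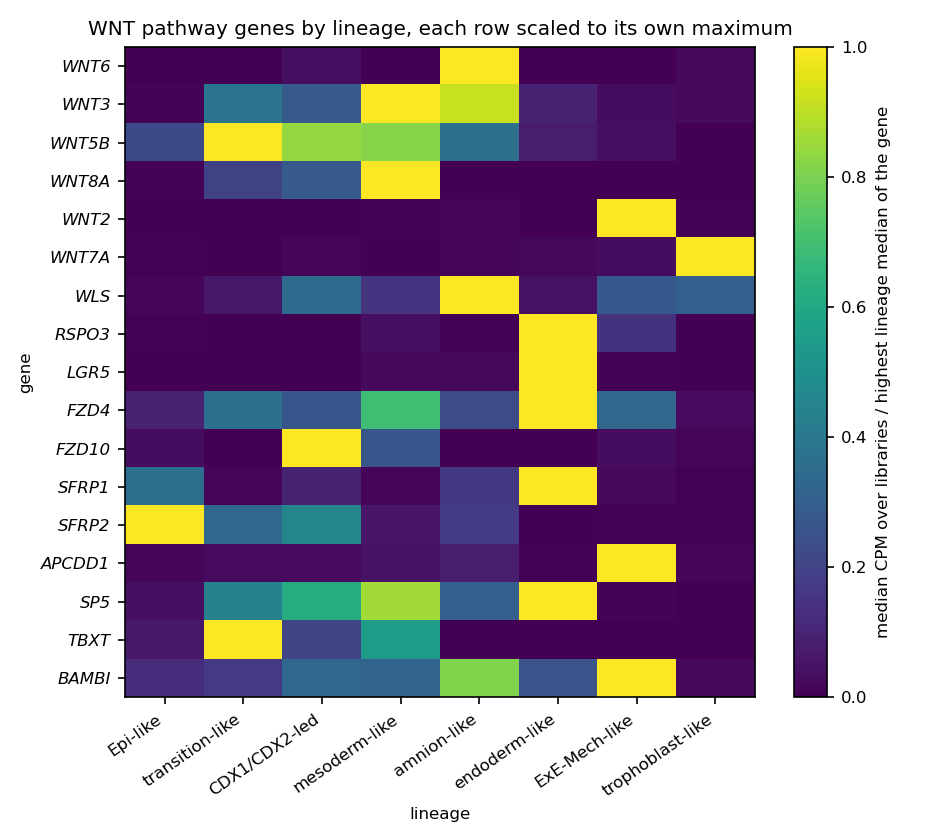
Median CPM over libraries of the 5 members and other WNT pathway genes (rows) in 8 lineages (columns), each row divided by its own highest median so that colours run from 0 to 1. The amnion-like column is highest for *WNT6* and *WLS*, the endoderm-like column for *RSPO3*, *LGR5*, *FZD4*, *SFRP1* and *SP5*, and the Epi-like column for *SFRP2*.

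For each member the genes with the most alike pattern were taken as those with the highest Pearson correlation of log2(CPM + 1) over 47 sums of a library and a class with at least 20 cells, among 981 genes with a symbol. For *WNT6* these were *GABRP* (r = 0.941), *TFAP2B* (0.924) and *MTUS2* (0.892). For *WNT5B* they were *ANP32A* (0.906), *PM20D2* (0.896) and *EVX1* (0.893). *RSPO3* was followed by *CDH2* (0.906), *PROS1* (0.865) and *CACNA2D1* (0.831). *SFRP1* was followed by *ITM2A* (0.882), *HPN* (0.823) and *ADH5* (0.808), and *SFRP2* by *PTPRZ1* (0.928), *CRMP1* (0.922) and *ACOT7* (0.919). Among the members the highest value was 0.623, between *WNT5B* and *SFRP2*. The sums share libraries and depth, and *GABRP* and *PTPRZ1* were among the markers that named the amnion-like and Epi-like cells.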

How the data were processed

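Polyadenylated RNA was measured in 11 droplet (10x v3) libraries of pooled cynomolgus embryos. The authors aligned reads with Cell Ranger 3.1.0 to the Ensembl annotation of Macaca_fascicularis_5.0, removed genes seen in fewer than 3 cells and cells by mitochondrial share and gene number, and subtracted ambient RNA with SoupX. The deposited corrected matrix holds expected counts in whole numbers, and the deposited uncorrected matrix holds UMI counts of 33539 cells, 209 of them absent from the corrected one and left out.

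Cells of each day were clustered with Seurat 5.3.0 (R 4.3.3): reciprocal PCA of 5000 features and 30 dimensions, uwot 0.2.3 with seed 42, a neighbour graph on the UMAP and a resolution of 0.8. The members and list genes were kept out of the features. A class name went to the highest marker score, with at least 3 markers in at least 25% of cells and no other class with more markers among the 10 leading genes. This rule was written with the clusters in view. Scrublet (scanpy 1.11.5, expected rate 6%) marked 555 cells (1.67%), which were kept.

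UMIs were summed per library and class with at least 5 cells and compared with edgeR 4.0.16 (TMM, filterByExpr, quasi-likelihood F test, two-sided, false discovery rate 1%) in 1 fit per class over all days. DESeq2 1.42.0, other filters, scalings, thresholds and clusterings, and fits without 1 library were alternatives. The fit was tested on simulated data. The text names the 5 members, *ISL1*, list genes that passed and a preset set of pathway genes with their levels. The members and gene lists were chosen with earlier results of these data known. Libraries of a group are separate pools of embryos.

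The labels give the batch (B1 or B2), which pairs libraries. Deviations from the group means of same-batch libraries correlated at 0.062 between Day 14 genotypes over all cells and at 0.131 on Day 12. Between the Day 14 genotypes the value was -0.004 in amnion-like cells. The 5 genes were matched by symbol, of which 1036 could be tied to an identifier, and the list was tied for 31 of 101 genes. Sequences were not used here.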

Additional observations from a re-analysis of the deposited data

Results flagged for a closer look

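The fold changes of *SFRP1* in Day 14 mutants had opposite signs in a pair of lineages, and neither passed the 1% threshold of edgeR (adjusted p = 0.0173 in amnion-like and 0.519 in endoderm-like cells). Its log2 difference of mutant minus wild type was 2.56 in amnion-like cells, where both mutant libraries were above both wild-type ones, and -1.99 in endoderm-like cells, where both were below. The difference between the lineages was not tested. The amnion-like value was -0.01 in the sub-clusters that held cells of both genotypes, and the endoderm-like value was -0.82 without the wild-type B1 library.

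The 209 cells of the uncorrected matrix alone, which no comparison used, held 12 *RSPO3* UMIs and 8 *SFRP1* UMIs of 972665 UMIs in all. Both were flagged for being above 3 UMIs, which is no test of their level. They are 12.3 and 8.22 CPM, from counts without ambient correction. *WNT6*, *WNT5B* and *SFRP2* had 3, 2 and 1 UMIs in the same cells.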

How the results depend on the processing

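Of 125 alternatives for the number of members called in the planned comparisons, 106 gave the main number. In Epi-derived-like cells on Day 14 the number was 0, and it became 1 with DESeq2 (4.62% of all genes), with only the libraries of the day (0.748%), with at least 20 cells (0.361%) or at a false discovery rate of 5% (4.41%), and 4 with no low-count filter (5.9%). In amnion-like cells the 0 became 1 with DESeq2 (4.04%) or with the replicate block (1.15%), 2 with no low-count filter (4.97%) and 2 at 5% (6.12%). In all cells of a library DESeq2 gave 2 (2.14%). In Epi-derived-like cells on Day 12 the number without a low-count filter was 3 (1.89%), and for the mutant effect of Day 14 against Day 12 it was 1 (1.11%). In wild-type Epi-like cells the 1 became 2 without a filter (3.56%), 2 at 5% (3.39%) and 0 with only the libraries of the days compared (0.408%). The replicate block of batch changed no other call.

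Leaving out 1 library at a time gave 0 to 1 members in amnion-like cells, 0 to 1 in the wild-type Epi-like comparison and 0 in the others. Among the fold changes, *RSPO3* ranged from -4.42 to 3.28 in Epi-derived-like and from -1.99 to 0.26 in ExE-Mech-like cells. In amnion-like cells *WNT6* ranged from -0.10 to 1.24 and *SFRP2* from -1.73 to 0.34, and *SFRP1* in Epi-like cells on Day 14 from -0.15 to 2.87. Where a library was left out of a pair, the lone library was assumed to vary like the other groups.

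The way classes were drawn turned some signs. With clusters from the integrated principal components the amnion-like values were -0.43 for *WNT6*, 0.16 for *WNT5B* and 0.52 for *SFRP2*, and *SFRP2* in CDX1/CDX2-led clusters was 0.24. That last class then lacked the Day 14 sub-cluster with *MIXL1*, *CDX2* and *CDX1* among its leading genes, which was named transition-like. With at least 20 cells *SFRP2* in amnion-like cells was 0.34. That limit dropped the Day 14 wild-type B2 library, with 19 such cells, so it repeats the fit without that library. In clusters with cells of both genotypes *SFRP1* was -0.01. That last setting, the names by marker score alone and the fits without trophoblast-led sub-clusters were chosen after seeing the data. Beyond these differences in the cells and libraries used, the cause of the shifts was not tested. Of 413 alternatives for the named fold changes, 371 kept their direction and side of the threshold.

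The number of all genes called moved more than that of the members. It was 11 in Epi-derived-like cells on Day 14 (0 to 1076 over the alternatives), 90 in amnion-like cells (2 to 792), 114 in wild-type Epi-like cells (10 to 621), 1 on Day 12 (0 to 345), 5 in Epi-like cells (0 to 226) and 3 in CDX1/CDX2-led clusters (1 to 163). It was 0 in all cells (to 323), trophoblast-like (to 280), ExE-Mech-like (to 215) and endoderm-like cells (to 120) and for the day contrast (to 203). The mesoderm-like comparison had too few mutant cells for the planned fit and most alternatives. Clustering on principal components or naming by score alone gave a fit, with 0 members called by edgeR (0% and 0.218% of genes) and 1 and 3 with an unadjusted p under 0.05 (8.15% and 11.3%). The depth limited *WNT6* in endoderm-like cells, where 0 UMIs allow up to 17.8 CPM in the shallowest library.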
